A study of Mus musculus with 6 samples.

Results

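The collagen chains and the enzymes and partner proteins that fold, modify, cross-link and assemble them were examined in mature 3T3-L1 adipocytes that overexpressed *Lmo3*. Members were taken by name, as every gene symbol of the form Col, number, a, number, together with 14 genes for prolyl 4-hydroxylase subunits, lysyl hydroxylases, lysyl oxidases, the collagen chaperone, *Sparc* and *Fn1*. This gave 58 members, 44 chains and 14 enzymes and partners, among 24421 gene symbols. Of these, 43 members had enough counts to be tested. The test called 4 chains higher in Ad*Lmo3* cells, beside 2.71% of all tested genes: *Col5a3*, *Col8a1*, *Col4a1* and *Col4a2*. It called 0 members lower, beside 1.57% of all tested genes. Without replicate 3 of the control virus (AdLacZ) 0 members were called, and over all genes only 55 of 12930 were called higher and 22 lower. The calls of *Col4a1* and *Col4a2* ended whichever library was left out. None of the 14 enzymes and partners passed the test.

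Collagens are secreted proteins in which chains wind around each other into a rope-like helix and then build fibrils, networks or filaments outside the cell. Before the helix forms, prolyl 4-hydroxylases and lysyl hydroxylases modify the chains in the endoplasmic reticulum, and lysyl oxidases cross-link the finished molecules outside the cell. In fat, each mature adipocyte is wrapped in a basement membrane built on type IV collagen, and type VI collagen is abundant between the cells.

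Lmo3 is a LIM domain protein that acts as a cofactor of transcription, and the comparison asks how its overexpression changes the RNA of adipocytes. 3T3-L1 is a mouse preadipocyte line that fills with lipid when induced, and the submitters give its strain as C57BL/6. Cells of both groups received the same cocktail from 2 days after confluency (DMEM with 10% CS, insulin at 870 nM, TZD at 5 µM, Dex at 1 µM and IBMX at 500 µM, the last pair left out from day 3). On day 7 they were infected at 100 pfu per cell with adenovirus carrying either LacZ, the bacterial beta-galactosidase used as control (AdLacZ), or a codon-optimized mouse *Lmo3* (Ad*Lmo3*), and RNA was taken 72 h later from 3 separate infections per virus, so that n = 3 in each group. Both groups therefore carried a virus, uninfected cells were not analysed here, and 1 cell line in culture holds neither the vessels nor the immune cells of fat tissue.

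RNA-Seq gave 28035639 to 38332335 counts on genes per library. The symbol *Lmo3* had 0 counts in all 6 libraries, which allows up to 0.0768 to 0.111 CPM (counts per 1000000 counts of a library), so the counts do not check which virus a library received. By edgeR's quasi-likelihood test with Benjamini-Hochberg adjustment, an adjusted p under 0.05 was reached by 346 of 12766 genes (2.71%) with more RNA after Ad*Lmo3* infection and by 201 (1.57%) with less. With libraries scaled by total counts alone the split was 266 higher and 501 lower; the factors of the TMM scaling, which evens out differences in library composition, were 1.02 to 1.04 in AdLacZ and 0.964 to 0.985 in Ad*Lmo3* libraries. The adipocyte markers moved with the virus, as 8 of 10 rose (1 of 10 when AdLacZ replicate 3 was left out) and their summed level was 13020 to 13370 CPM in AdLacZ against 18920 to 23740 CPM in Ad*Lmo3* libraries. Of 12 preadipocyte and fibroblast markers none passed the test, and none had an unadjusted p under 0.05, beside 20.6% of all genes. Their sums were 2699 to 3320 CPM against 2757 to 3531 CPM. The 4 endothelial markers summed to at most 2.38 CPM and the 4 macrophage markers found to at most 4.61 CPM, with no marker at 0 in every library. The part of these markers in the collagen values was not tested, and in bulk RNA fewer cells of a type and less RNA per cell cannot be told apart.

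Among the 43 tested members 4 were higher (set beside 2.71% of all genes) and 0 were lower (beside 1.57%). Leaving out 1 library left 0 to 2 higher, with 0 without AdLacZ replicate 3, and scaling by total counts left 2. Calls over all genes changed as well. Without AdLacZ replicate 3 only 55 of 12930 genes were called higher, and with total counts 266 of 12766. An unadjusted p under 0.05 was reached by 9 of 43 members, as it was by 20.6% of all genes, and 2 of these 9 were lower, beside 9.54% of all genes. DESeq2 called 5 members higher, beside 5.19% of all genes, and 0 lower, beside 3.35%, and limma voom called 4 higher and 0 lower. The fold changes were positive for 25 members and negative for 18, and their median on the log2 scale was 0.08, against 0.0014 over all tested genes. In 7 tested members the 3 Ad*Lmo3* libraries all lay above the 3 AdLacZ libraries, which was so for 13.3% of all genes, and in 1 member they all lay below, as in 13.2% of all genes. All of these are chains. Among the 29 tested chains 18 fold changes were positive and 11 negative, and among the 14 enzymes and partners 7 were positive and 7 negative.

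**Figure D1:**
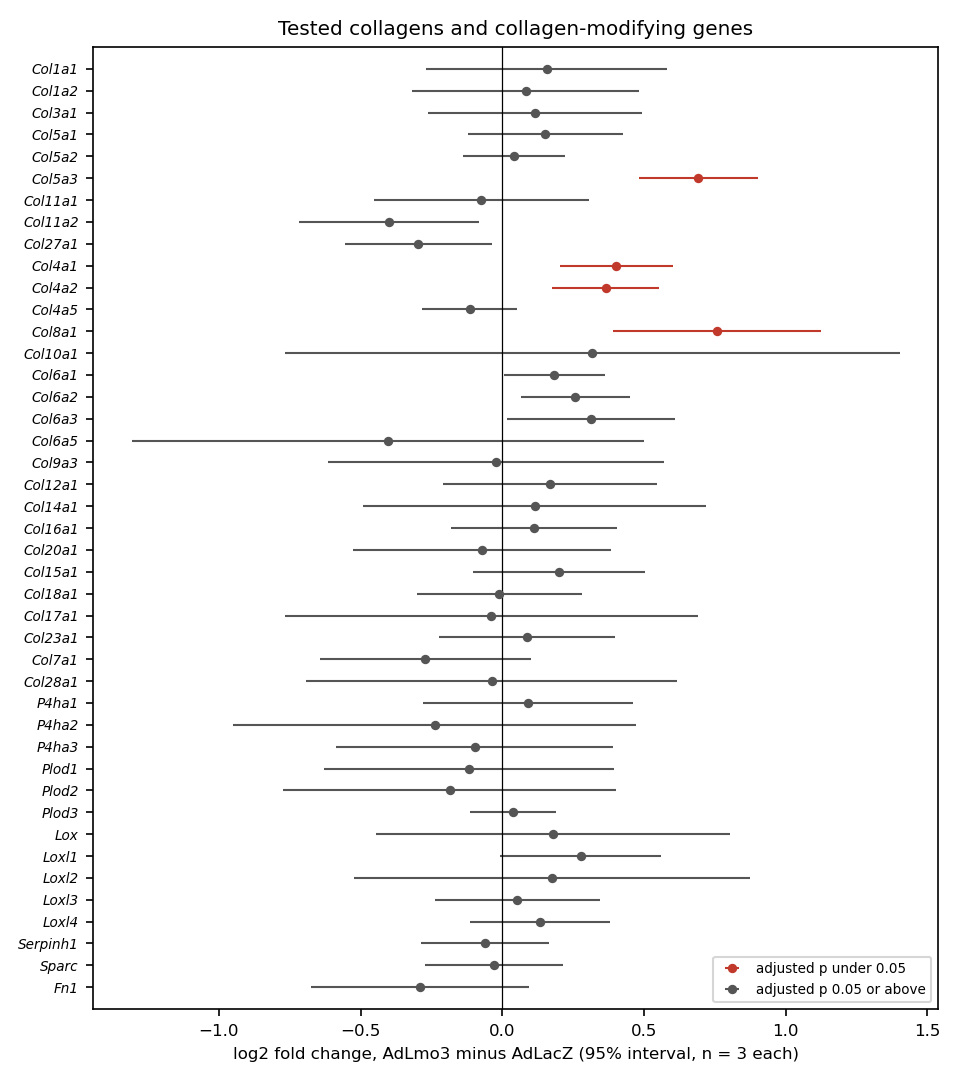
Log2 fold change of the 43 tested members, Ad*Lmo3* minus AdLacZ, with the 95% interval of the edgeR fit (n = 3 each), ordered by role. The 4 members in red passed the adjusted p of 0.05 and all lie to the right of 0, between 0.37 and 0.76, whereas all 14 enzymes and partners at the bottom have intervals that include 0.

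Among the members with over 100 CPM the change was largest in *Col5a3*, the alpha 3 chain of type V collagen, a minor fibril-forming collagen that is built into fibrils with type I collagen. Levels, as CPM scaled by TMM, were 222, 273 and 236 in AdLacZ replicates 1, 2 and 3 and 411, 400.1 and 369.6 in Ad*Lmo3* replicates 1, 2 and 3. Every Ad*Lmo3* library was well above every AdLacZ library, and the gap between the groups was wider than the range within either. Means were 244 ± 26.0 and 393 ± 21.3 CPM (SD, n = 3 each). The rise was 0.69 on the log2 scale (95% interval 0.48 to 0.90), or 1.62-fold, with an adjusted p of 0.00823 by edgeR. Leaving out AdLacZ replicate 3 ended the call (log2 fold change 0.67, adjusted p = 0.0601 by edgeR), and leaving out any other library did not. The gene lies at chr9:20770050-20815067 on the minus strand (GRCm38), and no exon base is shared with another annotated gene. The 250 bases before its start site, chr9:20815068-20815317 on the minus strand, are shown (RefSeq, GRCm38.p6) because its level changed most among the well-counted members. Capitals mark the matches to CCAAT, to the GC box GGGCGG and to CCACG, on either strand.
Col5a3: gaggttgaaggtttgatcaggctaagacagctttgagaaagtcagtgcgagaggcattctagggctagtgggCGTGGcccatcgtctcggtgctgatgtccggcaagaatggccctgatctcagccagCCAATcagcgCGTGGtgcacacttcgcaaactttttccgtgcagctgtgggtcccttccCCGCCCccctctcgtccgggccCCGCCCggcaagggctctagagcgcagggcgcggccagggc

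The other chains of type V collagen did not pass the test. *Col5a1*, whose chain is in most type V molecules, was at 965, 982 and 856 CPM in AdLacZ and 1171, 1079.5 and 863 CPM in Ad*Lmo3* libraries (log2 fold change 0.15, adjusted p = 0.536 by edgeR). *Col5a2*, its usual partner chain, was at 1268, 1178 and 1228 CPM and 1279, 1330.2 and 1169 CPM (log2 fold change 0.04, adjusted p = 0.824 by edgeR). In both genes the libraries of the groups overlapped. The ratio of *Col5a3* to *Col5a1* within a library, which does not depend on scaling, was 0.230, 0.278 and 0.275 in AdLacZ and 0.351, 0.371 and 0.428 in Ad*Lmo3* cells. Likewise the ratio of *Col5a3* to *Col5a2* was 0.175, 0.231 and 0.192 against 0.321, 0.301 and 0.316. Neither ratio overlapped between the groups; the two-sided exact permutation test gave p = 0.1 for each, the smallest that 3 against 3 libraries allow, and an adjusted p of 0.32 over the 8 ratios computed. Per kb of exon, *Col5a3* was the least expressed of the type V chains in AdLacZ cells at 35.8 ± 3.82 CPM per kb (SD, n = 3), below *Col5a1* at 110.0 ± 8.06 and *Col5a2* at 127.7 ± 4.70. In Ad*Lmo3* cells it was still the lowest of these at 57.8 ± 3.12 CPM per kb.

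Both main chains of type IV collagen, the network of basement membranes, were higher in Ad*Lmo3* cells. *Col4a1* was at 1859, 1816 and 1982 CPM in AdLacZ libraries and at 2475, 2306 and 2700.4 CPM in Ad*Lmo3* libraries. *Col4a2*, whose chain joins the *Col4a1* chains in 1 molecule, was at 1121, 1084 and 1156 CPM and 1472, 1320.3 and 1539 CPM. For both genes the groups did not overlap, and in both groups replicate 3 was the highest and replicate 2 the lowest library. The means were 1886 ± 86.3 and 2494 ± 198 CPM (SD, n = 3 each) for *Col4a1* and 1120.5 ± 35.9 and 1444 ± 112 CPM (SD, n = 3 each) for *Col4a2*. By edgeR the log2 fold changes were 0.40 (95% interval 0.20 to 0.60; adjusted p = 0.0434) and 0.37 (95% interval 0.18 to 0.55; adjusted p = 0.0484). The ratio of *Col4a1* to *Col4a2* was 1.66, 1.67 and 1.71 in AdLacZ and 1.68, 1.75 and 1.75 in Ad*Lmo3* libraries, which overlap (exact permutation p = 0.2). Both calls are near the threshold: the call of either gene ended whichever of the 6 libraries was left out, with adjusted p values of 0.0783 to 0.126 for *Col4a1* and 0.0817 to 0.15 for *Col4a2* by edgeR. It also ended with total counts as the only scaling (adjusted p = 0.0594 and 0.0728).

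The pair of genes is arranged head to head. *Col4a1* lies at chr8:11198423-11312826 on the minus strand and *Col4a2* at chr8:11312805-11449287 on the plus strand (GRCm38), so that the annotated transcripts overlap by 22 bases at their start sites. The bases around them, chr8:11312801-11312830 on the plus strand, are shown (RefSeq, GRCm38.p6) because both genes start there, and the capitals mark the overlap.
Col4a2 and Col4a1 start sites: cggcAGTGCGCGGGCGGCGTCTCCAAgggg
Overlap touches 0.295% of the exon bases of *Col4a1*. For *Col4a2* the exon share with other genes is 0.982%, and no stretch of 75 bases of either gene occurs in another gene.

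Of the other type IV chains only *Col4a5* was tested. It was at 258, 236 and 246 CPM in AdLacZ and 232, 239 and 213 CPM in Ad*Lmo3* libraries, with overlapping groups (log2 fold change -0.12, adjusted p = 0.423 by edgeR). *Col4a3*, *Col4a4* and *Col4a6* had at most 8 counts in any library. Per kb of exon, the AdLacZ level of *Col4a1* was 252.7 ± 11.6 CPM per kb, that of *Col4a2* 169.3 ± 5.42 and that of *Col4a5* 36.8 ± 1.67.

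*Col8a1*, the alpha 1 chain of type VIII collagen, a short-chain network collagen of vessels and of Descemet's membrane in the eye, was expressed at a low level. Raw counts were 104, 97 and 91 in AdLacZ and 145, 180 and 132 in Ad*Lmo3* libraries, or 2.92, 2.48 and 2.68 CPM against 3.91, 4.89 and 4.89 CPM. The groups did not overlap, and Ad*Lmo3* replicate 1 was the lowest of its group. Means were 2.70 ± 0.220 and 4.56 ± 0.562 CPM (SD, n = 3 each), and the difference on the log2 scale was 0.76 (95% interval 0.39 to 1.12), or 1.69-fold (adjusted p = 0.0405 by edgeR). The call held without Ad*Lmo3* replicate 1 and ended when any other library was left out (adjusted p = 0.0785 to 0.153 by edgeR). Its partner chain gene *Col8a2* had at most 4 counts in a library and was not tested. *Col10a1*, the other short-chain collagen tested, was at 0.309, 0.154 and 0.265 CPM against 0.162, 0.353 and 0.407 CPM, with overlapping groups. *Col8a1* lies at chr16:57624258-57754737 on the minus strand (GRCm38). The 250 bases before its start site, chr16:57754738-57754987 on the minus strand, are shown (RefSeq, GRCm38.p6) for comparison with those of *Col5a3*, with the same matches in capitals.
Col8a1: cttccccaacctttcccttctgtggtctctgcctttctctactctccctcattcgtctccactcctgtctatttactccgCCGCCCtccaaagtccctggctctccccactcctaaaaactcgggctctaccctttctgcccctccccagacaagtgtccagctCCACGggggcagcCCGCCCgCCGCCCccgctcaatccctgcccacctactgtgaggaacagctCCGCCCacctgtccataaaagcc
These hold 4 matches to the GC box and 1 to CCACG, and no CCAAT, whereas the *Col5a3* stretch holds 2, 2 and 1. Over windows from 250 bases before to 50 after a start site in the RefSeq table (GRCm38.p6), the GC box was in 63.0% of 46 windows of 43 matched members and in 35.7% of all 32851 windows. These 43 are the members found in that table and not the 43 tested members. They include chains with 0 counts in every library, such as *Col9a2* and *Col13a1*. CCACG was in 41.3% against 32.8%, CCAAT in 30.4% against 37.4% and TGACGT in 4.35% against 7.51%. A pair of AGGTCA separated by 1 base was in none of the members' windows and in 0.0396% of all. The members' windows were richer in G and C, with a median of 60.2% against 52.7%, and the shares above are not corrected for that. A match is a run of letters and is not evidence of binding.

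**Figure D2:**
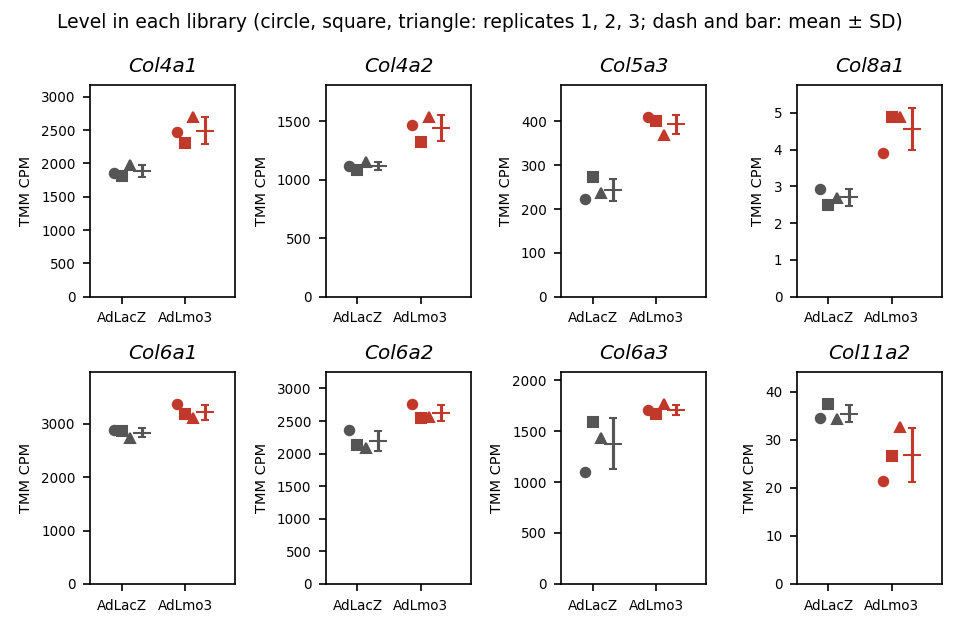
Level in each library (TMM CPM, axis from 0) of the 8 tested chains whose groups did not overlap, for AdLacZ (grey) and Ad*Lmo3* (red), with circle, square and triangle for replicates 1, 2 and 3 and dash and bar for the mean ± SD (n = 3). The top 4 chains passed the test across all genes; *Col6a1*, *Col6a2*, *Col6a3* and *Col11a2* did not, and *Col11a2* is the 1 tested chain whose Ad*Lmo3* libraries all lie below.

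Type VI collagen forms beaded filaments close to the cell surface, and in AdLacZ cells its common chains were at 646.4 ± 18.7 CPM per kb of exon for *Col6a1*, 263.6 ± 17.7 for *Col6a2* and 115.1 ± 20.9 for *Col6a3* (SD, n = 3). *Col6a1* was at 2891, 2865 and 2738 CPM in AdLacZ and 3369.5, 3176 and 3103 CPM in Ad*Lmo3* libraries. *Col6a2* was at 2364, 2129 and 2092 CPM and 2760.1, 2550.2 and 2564 CPM. *Col6a3*, the longest of these chains, was at 1102, 1592 and 1436 CPM and 1703, 1667 and 1764 CPM. In all 3 the Ad*Lmo3* libraries lay above the AdLacZ libraries, narrowly for *Col6a3*, in which AdLacZ replicate 1 was far below the rest. The log2 fold changes were 0.18, 0.26 and 0.31, and none passed the test (adjusted p = 0.226, 0.131 and 0.216 by edgeR), although DESeq2 called *Col6a2* (adjusted p = 0.0185). Neither the ratio of *Col6a2* to *Col6a1* (log2 difference 0.08, exact permutation p = 0.2) nor that of *Col6a3* to *Col6a1* (0.15, exact permutation p = 0.6) separated the groups. *Col6a5* was low at 2.68 to 6.18 CPM in AdLacZ and 2.15 to 5.10 CPM in Ad*Lmo3* libraries.

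The major fibril collagens took the most counts of all members and did not pass the test. *Col1a1*, the alpha 1 chain of type I collagen, was at 5221, 5904 and 4191 CPM in AdLacZ and 6625, 6192 and 4259 CPM in Ad*Lmo3* libraries. Its partner chain gene *Col1a2* was at 9098, 8785 and 7048 CPM and 10390, 9337 and 6673 CPM. *Col3a1*, the single chain of type III collagen, was at 12862, 11260 and 10025 CPM and 14422, 12974 and 9608 CPM. In each of these genes replicate 3 was the lowest library in both groups, and the groups overlapped. The log2 fold changes were 0.16 (95% interval -0.27 to 0.58), 0.08 (-0.32 to 0.48) and 0.12 (-0.26 to 0.49), with adjusted p values of 0.691, 0.84 and 0.749 by edgeR. Without Ad*Lmo3* replicate 1 the signs of *Col1a2* and *Col3a1* turned to -0.05 and -0.01. The ratio of *Col1a1* to *Col1a2* was 0.574, 0.672 and 0.595 against 0.638, 0.663 and 0.638 (exact permutation p = 0.4).

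Per kb of exon, *Col3a1* stood first among all members in AdLacZ cells at 1160 ± 145 CPM per kb (SD, n = 3), followed by *Sparc* at 911.3 ± 110, *Col1a1* at 777.8 ± 131, *Col1a2* at 668.8 ± 88.9 and *Col6a1* at 646.4 ± 18.7. For each neighbouring pair in this order the ranges of mean ± SD overlap. Within the AdLacZ libraries, *Col3a1* was above *Sparc* and *Col1a1* above *Col1a2* in every replicate. The other pairs changed places: *Col1a1* was above *Sparc* in replicate 2 (899.5 against 801.8 CPM per kb), and *Col6a1* above *Col1a2* in replicate 3 (625.1 against 567.2). With the longest transcript as the length in place of all exons, *Col1a2* moved from the fourth place to the second. Collagen genes together took 4.15%, 3.96% and 3.45% of gene counts in AdLacZ and 4.63%, 4.23% and 3.42% in Ad*Lmo3* libraries. These shares overlap, and replicate 3 had the lowest in both groups. Without *Col1a1*, *Col1a2* and *Col3a1* the share was 1.32%, 1.31% and 1.29% against 1.53%, 1.44% and 1.44%, without overlap between the groups. This sum includes *Col4a1*, *Col4a2*, *Col6a1*, *Col6a2* and *Col6a3*, with AdLacZ means of 1120.5 to 2831 CPM, which did not overlap singly either. Most of the remaining chains did overlap singly. Of those, *Col5a2* and *Col5a1* had AdLacZ means of 1224 and 934 CPM, and the others had at most 247 CPM. The sum is therefore not a finding apart from the single chains. The means of the summed share were 1.31 ± 0.0177% and 1.47 ± 0.0536% (SD, n = 3). The 14 enzymes and partners took 0.918%, 1.03% and 0.957% against 0.941%, 0.908% and 0.763%.

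Among the minor fibril collagens, *Col11a2*, a chain of type XI collagen best known from cartilage, was the 1 tested member with all Ad*Lmo3* libraries below. It was at 34.7, 37.4 and 34.4 CPM in AdLacZ and 21.5, 26.6 and 32.7 CPM in Ad*Lmo3* libraries. Ad*Lmo3* replicate 3 came close to the AdLacZ libraries. The log2 fold change of -0.40 did not pass (adjusted p = 0.15 by edgeR), but without Ad*Lmo3* replicate 3 it was -0.56 with an adjusted p of 0.0419. *Col11a1* had a log2 fold change of -0.07 (adjusted p = 0.85 by edgeR) and *Col27a1* of -0.30 (adjusted p = 0.184 by edgeR). *Col2a1* and *Col24a1*, the other fibril-forming chains, had at most 6 counts in a library.

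The remaining chains gave no call. *Col15a1*, a basement membrane zone collagen, was at 74.6, 105 and 86.7 CPM in AdLacZ and 89.2, 103 and 113 CPM in Ad*Lmo3* libraries (log2 fold change 0.20, adjusted p = 0.449 by edgeR). *Col18a1*, the source of endostatin, was at 131, 157 and 181 CPM and 138, 173 and 155 CPM (log2 fold change -0.01, adjusted p = 0.979 by edgeR). Both overlapped between the groups. Of 5 tested fibril-associated chains, which attach to the surface of fibrils, the log2 fold changes ran from -0.07 for *Col20a1* to 0.17 for *Col12a1*, with *Col16a1* the best expressed at 131 to 163 CPM in AdLacZ and 138 to 188 CPM in Ad*Lmo3* libraries. The transmembrane chains *Col17a1* and *Col23a1* were at -0.04 and 0.09, and *Col28a1* and *Col7a1*, the chain of anchoring fibrils, at -0.04 and -0.27. In all, 15 chains, among them the untested chains named above, did not pass the low-count filter. No library held more than 12 counts of any of them. Of these, *Col9a1*, *Col9a2* and *Col13a1* had 0 counts in all 6 libraries, which allows up to 0.0768 to 0.111 CPM per library.

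The enzymes that hydroxylate collagen showed no difference that passed the test. *P4ha1*, a catalytic subunit of prolyl 4-hydroxylase, was at 269.9, 424 and 396 CPM in AdLacZ and 389, 422 and 348 CPM in Ad*Lmo3* libraries. *P4ha2*, another such subunit, was at 109, 292 and 225 CPM and 187, 202 and 142 CPM. In both genes AdLacZ replicate 1 was the lowest of the 6 libraries and AdLacZ replicate 2 the highest, so the AdLacZ range enclosed all Ad*Lmo3* libraries. *P4ha3* was low, at 4.41, 2.89 and 3.36 CPM against 3.56, 3.72 and 2.63 CPM. By edgeR the log2 fold changes were 0.09, -0.24 and -0.10 (adjusted p = 0.808, 0.722 and 0.848). Leaving out a single library turned the sign of each: *P4ha1* to -0.09 and *P4ha3* to 0.09 without AdLacZ replicate 1, and *P4ha2* to 0.08 without AdLacZ replicate 2.

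Lysyl hydroxylases prepare the lysines that carry sugars and cross-links. *Plod1* was at 273, 529 and 444 CPM in AdLacZ and 364, 452 and 333 CPM in Ad*Lmo3* libraries. *Plod2*, which acts on the telopeptides, was at 71.7, 149 and 143 CPM and 95.1, 128 and 96.5 CPM. Again AdLacZ replicate 1 was the lowest and AdLacZ replicate 2 the highest of the 6. *Plod3*, which also adds sugar to collagen, was even across libraries at 194, 202 and 195 CPM and 192, 203 and 212 CPM. By edgeR the log2 fold changes were -0.12, -0.19 and 0.04 (adjusted p = 0.819, 0.743 and 0.799). The sign of *Plod1* turned to 0.09 without AdLacZ replicate 2, and that of *Plod3* to -0.04 with total counts as the scaling. *Plod3* shares 11.9% of its exon bases with *Znhit1* and *Mir702*, and *Plod2* shares 6.42% of its own with *Gm38391*, so reads there cannot be assigned without the strand setting.

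**Figure D3:**
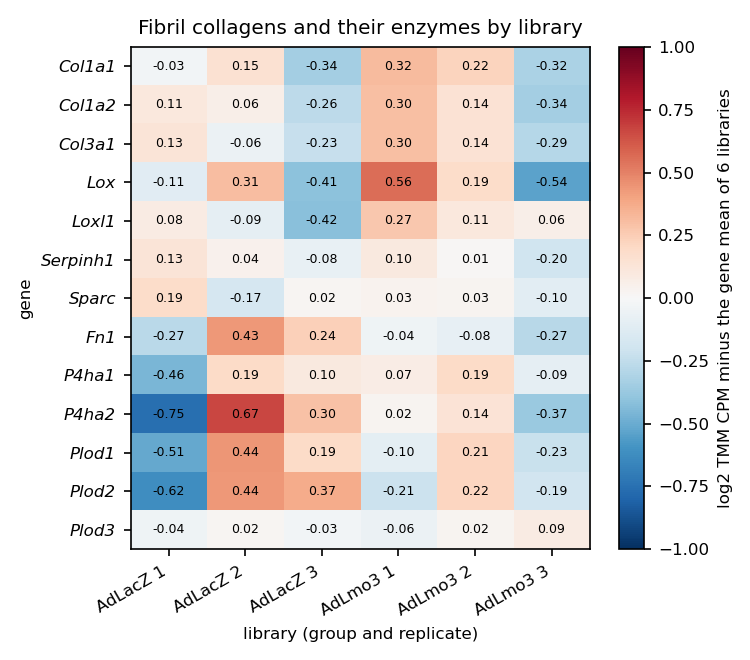
Log2 TMM CPM of 13 members in each of the 6 libraries, minus the gene's mean over the 6 (colour and printed value; columns are libraries, rows are genes). *Col1a1*, *Col1a2*, *Col3a1*, *Lox*, *Loxl1* and *Serpinh1* are lowest in replicate 3 within both groups. The share of all genes with that pattern was not computed. *P4ha1*, *P4ha2*, *Plod1* and *Plod2* are lowest in AdLacZ replicate 1 (-0.46 to -0.75).

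Lysyl oxidases start the cross-linking of collagen and elastin. *Lox* was at 773, 1033 and 627 CPM in AdLacZ and 1232, 949 and 576 CPM in Ad*Lmo3* libraries. Like the type I chains, it was lowest in replicate 3 of both groups, and the groups overlapped (log2 fold change 0.18, 95% interval -0.44 to 0.80, adjusted p = 0.765 by edgeR). *Loxl1*, which is needed for elastic fibres, was at 142, 126 and 101 CPM and 162, 145 and 140.2 CPM. Its Ad*Lmo3* libraries lay above AdLacZ replicates 2 and 3, with the lowest just under AdLacZ replicate 1, and the log2 fold change of 0.28 did not pass (adjusted p = 0.258 by edgeR). The other 3 were lower in level: *Loxl2* at 1.04, 1.82 and 1.65 CPM against 1.70, 2.20 and 1.15 CPM, *Loxl3* at 31.7, 27.2 and 22.5 CPM against 29.5, 25.6 and 29.5 CPM, and *Loxl4* at 11.1, 10.2 and 9.32 CPM against 11.5, 11.7 and 10.3 CPM. Their log2 fold changes were 0.18, 0.05 and 0.13 (adjusted p = 0.799, 0.861 and 0.554 by edgeR), and all of their groups overlapped. All 5 fold changes of this family were positive with TMM, but that of *Loxl3* turned to -0.02 with total counts alone, and those of *Lox*, *Loxl2* and *Loxl3* turned when 1 library was left out (-0.08 and -0.06 for *Lox* and *Loxl2* without Ad*Lmo3* replicates 1 and 2, and -0.06 for *Loxl3* without AdLacZ replicate 3). *Loxl2* counts are uncertain because 43.6% of its 75-base stretches also occur in another annotated gene. *Loxl3* shares 11.6% of its exon bases with *Htra2*.

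The chaperone and the matrix partners gave no call either. *Serpinh1*, which encodes the collagen chaperone HSP47, was at 1082, 1016 and 936 CPM in AdLacZ and 1055, 993 and 859 CPM in Ad*Lmo3* libraries (log2 fold change -0.06, adjusted p = 0.778 by edgeR). *Sparc*, a matricellular protein that binds collagen, was at 3873, 3037 and 3445 CPM and 3487, 3479.5 and 3173 CPM (log2 fold change -0.03, adjusted p = 0.913 by edgeR). *Fn1*, fibronectin, on which collagen fibrils assemble, was at 2003, 3256 and 2844 CPM and 2351, 2284 and 1997 CPM (log2 fold change -0.29, 95% interval -0.67 to 0.10, adjusted p = 0.383 by edgeR). AdLacZ replicate 1 had less *Fn1* than the other AdLacZ libraries, and all Ad*Lmo3* libraries lay below AdLacZ replicates 2 and 3. The ratio of *Serpinh1* to *Col1a1* was 0.207, 0.172 and 0.223 against 0.159, 0.160 and 0.202 (exact permutation p = 0.2). The ratio of *P4ha1* to *Col1a1* was 0.0517, 0.0718 and 0.0945 against 0.0587, 0.0682 and 0.0817 (exact permutation p = 0.9). Across the 14 enzymes and partners edgeR called 0 higher and 0 lower, beside 2.71% and 1.57% of all genes. An unadjusted p under 0.05 was reached by 0, beside 20.6% of all genes. DESeq2 called 0, beside 5.19% higher and 3.35% lower over all genes. The voom fit of limma also called 0, beside 358 higher and 204 lower over all genes. With only 14 genes, 0 calls is not a result about the enzymes.

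Type IV collagen is laid down with laminins, nidogens and perlecan, and these partners moved in both directions. Of 16 tested basement membrane genes 2 rose (beside 2.71% of all genes), 2 fell (beside 1.57%) and 12 did not pass; the median on the log2 scale was 0.0003. *Nid1*, the nidogen that links laminin to type IV collagen, was at 772, 847 and 843 CPM in AdLacZ and 1083, 1074 and 1111 CPM in Ad*Lmo3* libraries (log2 fold change 0.41, adjusted p = 0.0205 by edgeR). *Smoc1*, a calcium-binding basement membrane protein related to *Sparc*, was at 6.55, 10.3 and 8.38 CPM and 15.1, 23.4 and 24.0 CPM (log2 fold change 1.30, adjusted p = 0.0178). The 2 that fell are laminin chains. *Lama4*, the laminin alpha 4 chain, was at 823, 854 and 947 CPM and 662, 635 and 626 CPM (log2 fold change -0.45, adjusted p = 0.02 by edgeR), and *Lamb2*, the laminin beta 2 chain, at 146, 163 and 143 CPM and 115, 117 and 106 CPM (-0.42, adjusted p = 0.0237). In all 4 the groups did not overlap. *Hspg2*, perlecan, also had all Ad*Lmo3* libraries above, with a log2 fold change of 0.40 and an adjusted p of 0.0731 by edgeR. Leaving out AdLacZ replicate 3 ended the call of all 4 (adjusted p = 0.0923 for *Nid1*, 0.0947 for *Smoc1*, 0.0967 for *Lama4* and 0.0789 for *Lamb2*), and leaving out Ad*Lmo3* replicate 2 did so too (0.0872, 0.0834, 0.102 and 0.0853). The calls of *Nid1* and *Lamb2* ended when any library except Ad*Lmo3* replicate 1 was left out, and that of *Lama4* also without AdLacZ replicate 2 or Ad*Lmo3* replicate 3.

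**Figure D4:**
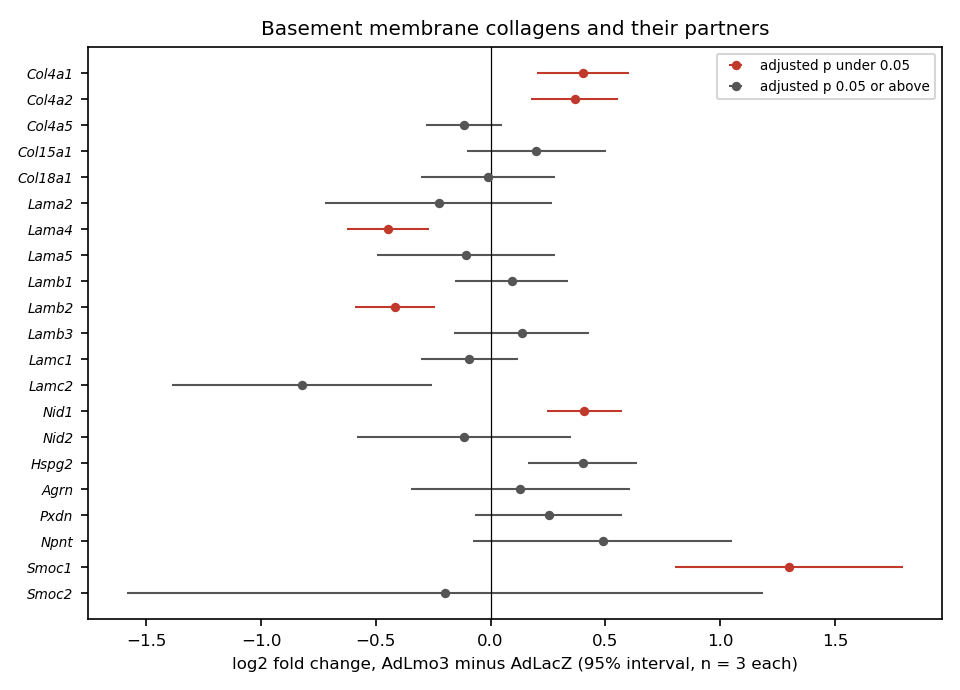
Log2 fold change, Ad*Lmo3* minus AdLacZ, with 95% intervals (n = 3 each) for the basement membrane collagens and 16 partners. *Col4a1*, *Col4a2*, *Nid1* and *Smoc1* passed the test to the right of 0, and *Lama4* and *Lamb2* to the left, at -0.45 and -0.42.

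Among 28 other tested genes of collagen folding, sugar transfer, export and processing, 0 rose and 1 fell, beside 2.71% and 1.57% of all genes. The median on the log2 scale was -0.08, and 9 were at an unadjusted p under 0.05 in either direction, beside 20.6% of all genes. DESeq2 called 0 higher and 5 lower, beside 5.19% and 3.35% of all genes. The gene that fell was *Pdia3*, a disulfide isomerase of the endoplasmic reticulum that acts on many glycoproteins. It was at 1004, 937 and 1035 CPM in AdLacZ and 684, 573 and 599 CPM in Ad*Lmo3* libraries. Every Ad*Lmo3* library was far below the AdLacZ libraries, a log2 fold change of -0.68 (adjusted p = 0.0078 by edgeR). Without AdLacZ replicate 3 the adjusted p was 0.0558. In 8 of the 28 all Ad*Lmo3* libraries lay below, beside 13.2% of all genes, and in 1 all lay above; *Fkbp10*, a prolyl isomerase that assists lysyl hydroxylation, was at 145, 134 and 138 CPM against 121, 117 and 101 CPM (adjusted p = 0.0871 by edgeR).

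Of 27 tested collagen-binding matrix proteins 2 rose, 0 fell and 25 did not pass, beside 2.71% and 1.57% of all genes called higher and lower. Of these 27, 22 fold changes were positive (50.4% of all genes), the median was 0.23 on the log2 scale, and in 9 all Ad*Lmo3* libraries lay above, beside 13.3% of all genes. DESeq2 called 8 higher, beside 5.19% of all genes, and 0 lower. *Bgn*, biglycan, a small proteoglycan on collagen fibrils, was at 1255, 1257 and 1179.9 CPM in AdLacZ and 1478, 1574 and 1652 CPM in Ad*Lmo3* libraries (log2 fold change 0.35, adjusted p = 0.0446 by edgeR). *Prelp*, a leucine-rich repeat protein that anchors basement membranes to collagen, was at 265, 288 and 259.8 CPM and 331, 358 and 379 CPM (log2 fold change 0.39, adjusted p = 0.0321). Neither overlapped between the groups. The call of *Bgn* ended whichever library was left out (adjusted p = 0.0517 to 0.191 by edgeR) and with total counts as the scaling (0.0709). That of *Prelp* ended when any library except Ad*Lmo3* replicate 1 was left out (0.0537 to 0.148). Of 15 tested collagen receptors 1 rose and 0 fell, beside 2.71% and 1.57% of all genes, and the median was -0.0001. An unadjusted p under 0.05 was found for 4 of the 15, beside 20.6% of all genes. *Adgrg1*, an adhesion receptor that binds type III collagen, was at 33.4, 38.1 and 35.2 CPM and 51.2, 54.6 and 46.4 CPM, without overlap (log2 fold change 0.51, adjusted p = 0.0158 by edgeR). Its call ended without AdLacZ replicate 1 (0.0505), AdLacZ replicate 3 (0.0864) or Ad*Lmo3* replicate 2 (0.0774).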

How the data were processed

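RNA-Seq of 3 AdLacZ and 3 Ad*Lmo3* libraries (75 bp single reads) was analysed from the raw gene counts the authors deposited, 1 table per library. Per the submitters' processing notes, bcl2fastq, STAR 2.5.0b, DESeq2 1.6.3 and mm10 were used; the counting program, strand setting and annotation are not given in the sources used here. Reads assigned to no gene (7.15 to 8.94%) and ambiguous reads (0.476 to 0.543%) stayed out of library sizes. Genes kept by filterByExpr were tested on the counts with edgeR 4.0.16 (TMM, quasi-likelihood test; R 4.3.3), with Benjamini-Hochberg adjustment over all 12766 tested genes and a threshold of 0.05, after the steps were tested on simulated data. Intervals are 95% intervals of the fit and are not adjusted. CPM are counts per 1000000 counts of a library, scaled by TMM; CPM per kb divide by all exon bases in GENCODE M21 (GRCm38). A floor of 3 counts stands for 0. Per the series description RNA came from 3 separate infections per virus, and no pair of libraries of a group agreed within sampling noise (chi-square per degree of freedom 18.9 to 49.9).

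Ratios within a library were compared by exact permutation tests (scipy 1.17.1). The alternatives were DESeq2 1.42.0, limma 3.58.1 voom, RLE or total-count scaling, other low-count filters, the replicate number as a block and leaving out each library. Members, gene lists and tests were chosen with earlier results of these data known. Values in every library are given for members with an adjusted p under 0.05 and for 28 members listed by name; other members are given by range, apart from *Col4a5*, *Col10a1* and *Col11a2*, which were added after their values were seen. From each other list the genes past the threshold are given, and *Hspg2* and *Fkbp10* were likewise added afterwards. Promoter windows came from the RefSeq table (GRCm38.p6).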

Additional observations from a re-analysis of the deposited data

How the results depend on the processing

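Of 29 members compared under every alternative, 15 kept the sign of their fold change and 14 did not. *Col5a3* stayed past the threshold under every alternative except the omission of AdLacZ replicate 3. The counts of genes called moved most. DESeq2 gave 671 higher and 433 lower over all genes, 5 lower in the collagen biosynthesis list, 8 higher among the collagen-binding proteins and 2 higher among the receptors. Total counts alone shifted the median of all genes to -0.07 on the log2 scale and gave 501 lower over all genes, 2 members higher, 4 lower in the biosynthesis list and 1 higher among the collagen-binding proteins, and turned *Col5a2* to -0.033, *Plod3* to -0.036 and *Loxl3* to -0.021. Without a low-count filter 5 collagen-binding proteins were higher, beside 429 of 18078 genes. With the replicate number as a block 2 members were called, *Col4a1* and *Col5a3*. The adjusted p was then 0.0526 for *Col4a2* and 0.0726 for *Col8a1* by edgeR. In that fit 5 collagen-binding proteins were higher, and over all 12766 genes 348 were higher and 150 lower. The numbers are not stated to pair the libraries. Deviations of same-numbered libraries correlated at 0.051, 0.225 and 0.234, each library correlating best with its own number except in replicate 1.

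Leaving out 1 library gave 55 to 354 genes higher and 22 to 147 lower, with fewest without AdLacZ replicate 3. Members called higher were then 0 to 2 and lower 0 to 1; biosynthesis genes lower 0 to 1, collagen-binding proteins higher 0 to 2, basement membrane partners higher 0 to 2 and lower 0 to 2, receptors higher 0 to 1 and adipocyte markers higher 1 to 8. Log2 fold changes that turned spanned -0.048 to 0.25 for *Col1a2*, -0.0054 to 0.27 for *Col3a1*, -0.12 to 0.11 for *Col18a1*, -0.11 to 0.060 for *Sparc*, -0.12 to 0.019 for *Serpinh1*, -0.085 to 0.22 for *P4ha1*, -0.55 to 0.081 for *P4ha2*, -0.23 to 0.088 for *P4ha3*, -0.35 to 0.094 for *Plod1*, -0.083 to 0.43 for *Lox*, -0.065 to 0.37 for *Loxl2* and -0.063 to 0.18 for *Loxl3*. The log2 ratio of *Col6a3* to *Col6a1* spanned -0.021 to 0.25 and that of *P4ha1* to *Col1a1* -0.26 to 0.18. Per kb of the longest transcript in place of all exons, the mean over all libraries was 2131 CPM for *Col3a1*, 1485 for *Sparc* and 1600 for *Col1a2*, against 1208, 901.8 and 688.5. The causes were not tested. The 3 libraries per group limit every call here, and the 15 untested chains cannot be compared at this depth.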

Other observations

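*P4ha1*, *P4ha2*, *Plod1* and *Plod2* were lowest in AdLacZ replicate 1, as were 2208 of all 12766 tested genes (17.3%). So were the tested members *Col5a3*, *Col6a3*, *Col9a3*, *Col12a1*, *Col15a1*, *Col18a1*, *Col20a1* and *Loxl2*. *P4ha3* and *Plod3* were not lowest there, so the pattern was neither shared by all hydroxylases nor particular to them. The 8 genes outside the members given below were picked by hand after the members' values had been seen, so they say nothing about how common the pattern is in any group of genes. *Bnip3*, a mitophagy receptor, was at 238 CPM in AdLacZ replicate 1 and at 549 to 817 CPM in the other 5 libraries. *Egln3*, a prolyl hydroxylase that acts on hypoxia-inducible factors, was at 147 CPM there and at 381 to 688 CPM in the rest. *Ldha*, lactate dehydrogenase A, was at 671 CPM against 1243 to 1711 CPM, and *Pgk1*, phosphoglycerate kinase, at 194 CPM against 346 to 616 CPM. *Pdk1* was at 149 CPM against 282 to 417 CPM, *Vegfa* at 283 CPM against 387 to 539 CPM, *Slc2a1* at 95.8 CPM against 136 to 299.8 CPM and *Ankrd37* at 4.33 CPM against 11 to 21 CPM. None of the 8 passed the comparison of the viruses by edgeR (adjusted p = 0.45 to 0.927), and 0 of them had an unadjusted p under 0.05. Whether these genes share anything with the members that were lowest in AdLacZ replicate 1 was not tested.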
